A study of Rattus norvegicus with 172 samples.

Results

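The lowest dose of 3-methylfuran was compared with its concurrent controls across all liver genes. The 16 rats (48 sequencing runs) are those named for the 0.02 mg/kg diet and for the control diet in the 3-methylfuran count table, of 70 rats (172 runs) in the series. They were male Fischer F344 rats on study for 90 days. Of these, 8 received 0.02 mg/kg body weight per day of 3-methylfuran, and 8 were controls at 0 mg/kg. RNA from flash-frozen liver was made into poly(A) libraries with the TruSeq Stranded mRNA protocol, and each rat's library was sequenced in 3 runs. The other 16 rats of this experiment, 8 at 0.075 and 8 at 1.0 mg/kg, entered the same model and are used here to set the size of a value beside higher doses. A separate furan experiment, with its own controls and a later library kit, held 38 rats. Rats are named below as in the labels, and the labels do not say whether rats shared a cage or litter.

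3-methylfuran is furan with a methyl group on its ring, and both arise in heated food. In the liver, furan is oxidised by the cytochrome P450 Cyp2e1 to a reactive dialdehyde that binds glutathione and proteins. Electrophiles of that kind release the transcription factor NRF2, which raises glutathione S-transferases, aldehyde reductases and export pumps, and sustained furan exposure is known for liver injury, regenerative growth and bile duct changes in rats.

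Each rat had 12 to 17.6 M counts at 0.02 mg/kg and 11.1 to 18.9 M in the controls, so the groups were of like depth. TMM scaling factors were 0.914 to 0.985 and 0.919 to 0.974, and 15361 to 15866 and 15267 to 15991 genes were detected per rat. The 8 tested hepatocyte markers, among them Alb and Tf, summed to 222200 to 241080 CPM (counts scaled to the library's size) at 0.02 mg/kg and 212750 to 236020 in the controls. In bulk liver, fewer cells of a type and less RNA per cell cannot be told apart.

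At 0.02 mg/kg, 4 of 11930 tested genes passed an adjusted p of 0.05 (edgeR quasi-likelihood test, Benjamini-Hochberg), which is 0.0335% of the genes. Arhgap24 and Homer1 were higher, and Ppan and Hs6st1 were lower. One of them, Ppan, reached 1.5-fold. For scale, 163 genes (1.37%) were called at 0.075 mg/kg and 5207 (43.6%) at 1.0 mg/kg against the same 8 control rats. The median log2 fold change over all genes at 0.02 mg/kg was -0.0016, with 5896 genes above 0 and 6034 below. At an unadjusted p under 0.05 there were 846 genes (7.09%), 368 higher and 478 lower, where a uniform spread of p-values would give 596.5. On the 16 rats alone, without those at 0.075 and 1.0 mg/kg in the fit, edgeR called 0 genes (766 at an unadjusted p under 0.05). The count of calls also moved with the rats left out. It was 0 in edgeR when control rats MC508L and MC511L, which stood apart as described further on, were left out together (692 genes at an unadjusted p under 0.05), although the log2 fold changes of Arhgap24, Homer1, Ppan and Hs6st1 were then 0.52, 0.50, -0.54 and -0.43, beside 0.56, 0.54, -0.59 and -0.50 with all rats. Leaving out 1 rat at a time gave 1 to 11 calls: 1 without rat MA524L, 2 without rat MA521L, MA529L, MA531L, MC507L, MC511L or MC512L, 7 without rat MA532L, 10 without rat MC510L and 11 without rat MC503L.

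**Figure D1:**
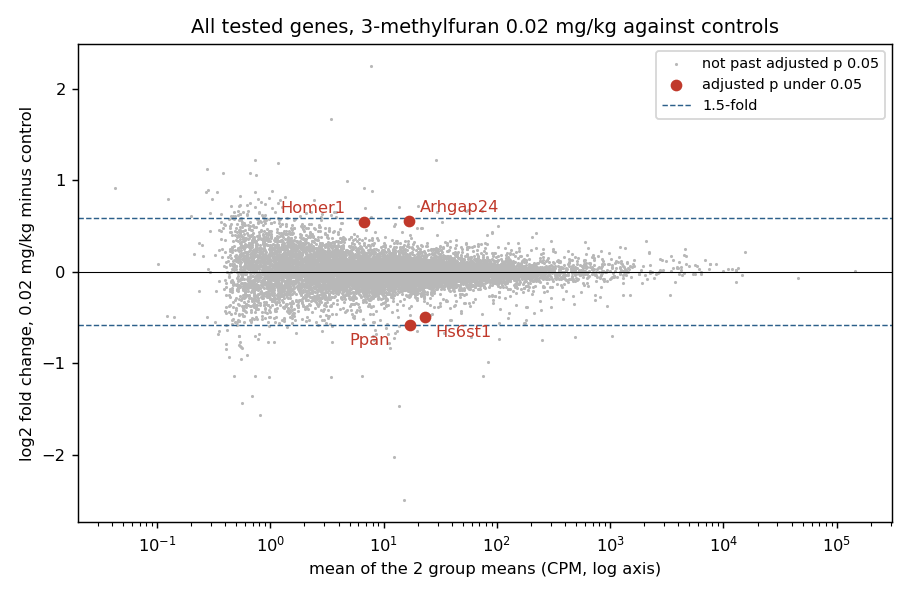
Log2 fold change at 0.02 mg/kg over control (vertical) against the mean of both group means in CPM (horizontal, log axis) for the 11930 tested genes. Red points are the 4 genes past an adjusted p of 0.05, the dashed lines mark 1.5-fold, and the wide values at other points did not pass the test.

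Arhgap24 (ENSRNOG00000056944) encodes a GTPase-activating protein for small GTPases such as Rac. Its level per control rat was 10.4 CPM at the lowest, 13.6 at the median and 18.3 at the highest. At 0.02 mg/kg the lowest, median and highest were 16.1, 20.3 and 23 CPM. The groups overlapped through control rat MC510L, the highest control, and the dosed rats MA525L and MA532L. The log2 fold change was 0.56 ± 0.10 (SE), with a 95% interval of 1.29- to 1.69-fold and an edgeR adjusted p of 0.0127. All 16 fits that left out 1 rat called it.

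Homer1 (ENSRNOG00000047014), a scaffold protein best known from synapses, ran from 4.05 to 6.58 CPM in the controls (median 5.25) and from 6.91 to 9.53 CPM at 0.02 mg/kg (median 8.03). Every dosed rat lay above every control. The log2 fold change was 0.54 ± 0.10, with an interval of 1.27- to 1.67-fold and an edgeR adjusted p of 0.0127. It was called in 15 of the 16 fits that left out 1 rat, the highest adjusted p being 0.0524.

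Ppan (ENSRNOG00000020608), a nucleolar protein needed for maturation of the large ribosomal subunit, ran from 15.8 to 25.7 CPM in the controls (median 20.6) and from 10.7 to 17.7 CPM at 0.02 mg/kg (median 14.0). The groups overlapped through the dosed rat MA532L and control rats MC503L and MC510L. The log2 fold change was -0.59 ± 0.11 (0.570- to 0.778-fold, edgeR adjusted p 0.0264), and 8 of the 16 fits that left out 1 rat did not call it.

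Hs6st1 (ENSRNOG00000014516), which adds sulfate to heparan sulfate chains, ran from 20.3 to 34.5 CPM in the controls (median 27.3) and from 16 to 21.9 CPM at 0.02 mg/kg (median 19.9). Control rat MC503L, at 20.3 CPM, lay within the range of the dosed rats. The log2 fold change was -0.50 ± 0.10 (0.616- to 0.813-fold, edgeR adjusted p 0.0405), and 10 of the 16 fits that left out 1 rat did not call it.

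Exact two-sided permutation tests of single genes over the 16 rats gave unadjusted p of 0.000466 for Arhgap24, 0.000155 for Homer1, 0.000466 for Ppan and 0.000622 for Hs6st1, where 0.000155 is the smallest that 12870 arrangements can give. Against 0.075 mg/kg their log2 differences at 0.02 mg/kg were -0.01, 0.14, 0.01 and 0.11, and none of these passed. At 1.0 mg/kg against the shared controls they stood at 0.70, 0.39, -0.15 and -0.38, and 1.0 was not tested against 0.02 mg/kg. All 3 doses were set against the same control rats, so these values are not independent of each other.

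**Figure D2:**
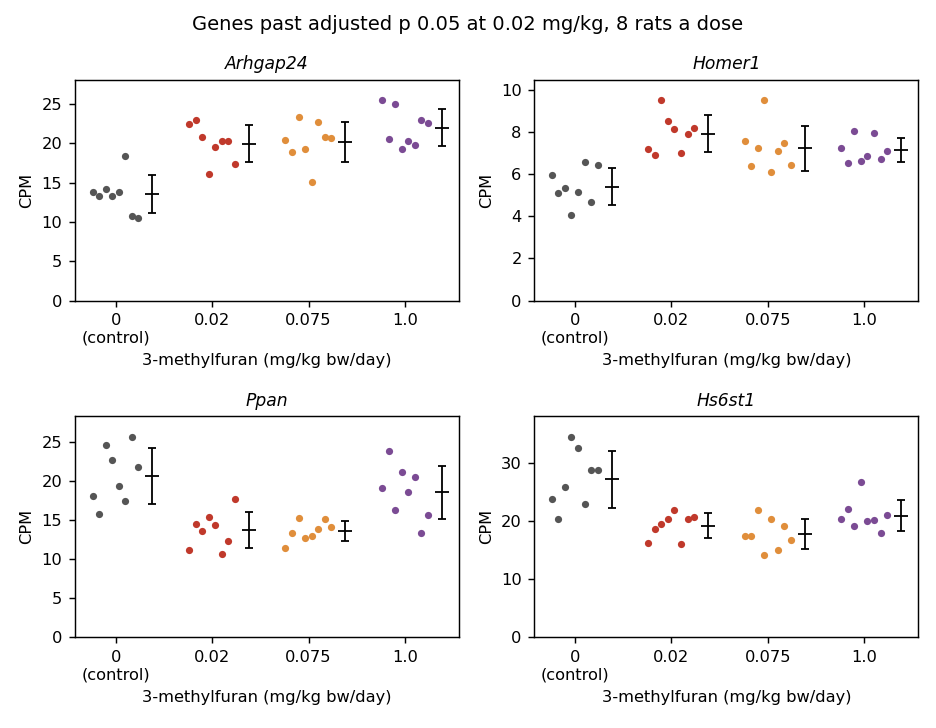
CPM of each rat (points, 8 a dose) for the 4 called genes at 0, 0.02, 0.075 and 1.0 mg/kg of 3-methylfuran, with the mean and SD of each group beside them. Homer1 at 0.02 mg/kg lies wholly above its controls, at 6.91 to 9.53 against 4.05 to 6.58 CPM, and the other 3 genes overlap with their controls at the edges.

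The 250 bases before the start of Homer1 and Ppan are shown as those of 1 called gene that was higher and 1 that was lower, from the RefSeq promoter table (build GRCr8, gene strand, 5′ to 3′). Homer1 lies at chr2:26278762-26279011 on the plus strand and Ppan at chr8:27699897-27700146 on the plus strand. Capitals mark a match to the antioxidant response element core TGACNNNGC, searched on both strands.
Homer1: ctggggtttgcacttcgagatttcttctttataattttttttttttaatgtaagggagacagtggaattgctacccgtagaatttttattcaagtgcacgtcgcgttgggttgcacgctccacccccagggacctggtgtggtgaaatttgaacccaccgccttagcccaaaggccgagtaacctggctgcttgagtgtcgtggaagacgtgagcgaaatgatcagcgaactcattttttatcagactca
Ppan: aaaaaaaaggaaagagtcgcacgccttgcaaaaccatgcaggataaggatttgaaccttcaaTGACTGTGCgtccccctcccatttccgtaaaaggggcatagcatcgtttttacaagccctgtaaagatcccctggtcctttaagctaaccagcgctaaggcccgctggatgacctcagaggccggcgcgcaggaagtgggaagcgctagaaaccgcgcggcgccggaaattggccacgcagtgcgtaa
The core matched once in the Ppan window and nowhere in that of Homer1 or Hs6st1, and 10.1% of the 33469 promoters of the table hold it. The glucocorticoid response element core AGAACA, the E-box CACGTG and the D-box TTATGTAA or TTACGTAA, also searched on both strands, were in none of these 3 windows, and 17.5%, 5.59% and 0.932% of all promoters hold them.

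The genes next in order of p did not pass. On the higher side they were Afp, Hnf4g and Npc1. Afp, the fetal serum protein alpha-fetoprotein, ran from 18.3 to 24.4 CPM in the controls and from 23.2 to 31.1 at 0.02 mg/kg, with a log2 difference of 0.29 ± 0.06 and an edgeR adjusted p of 0.0900. Hnf4g, a nuclear receptor related to HNF4 alpha, differed by 0.69 ± 0.16, and Npc1, which moves cholesterol out of lysosomes, by 0.32 ± 0.07, both at an adjusted p of 0.0990. On the lower side, Sac3d1 (-0.46 ± 0.10), Cdc42ep4 (-0.45 ± 0.10) and the terminal uridylyltransferase Tut1 (-0.38 ± 0.09) stood at the same adjusted p. In the 16 rats, 9 genes (0.0754%) had groups that did not overlap. Homer1 and Glcci1 had all dosed rats above all controls, and those with all dosed rats below include Hgs, Klhl25, Rnf40, Sac3d1, Tut1 and Vps18. Of these 9, only Homer1 passed the adjusted test, and these names were chosen after their values were seen. Hgs, a sorting protein of endosomes, had the smallest difference of them, -0.16, and Glcci1, a glucocorticoid-induced transcript, stood at 0.34.

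In the authors' deposited table, 18 of 18604 genes had an adjusted p under 0.05 at this dose, 8 higher and 10 lower. By the folds of that table, 2 of them reached 1.5-fold. By the counts, those past 1.5-fold include Ppan, Hnf4g, Rrs1, Usp2 and Epha4. A DESeq2 Wald test on the summed counts called the same 18 genes (18 shared). They include all 4 genes called by edgeR, together with Afp, Hnf4g, Npc1, Cdc42ep4 and Tut1. They also include Rrs1, a ribosome assembly factor, which ran from 11.6 to 22.9 CPM in the controls and from 8.45 to 14.1 at 0.02 mg/kg (log2 -0.60 ± 0.13, edgeR adjusted p 0.0990). Cebpa, a transcription factor of mature hepatocytes, ran from 222 to 329 CPM and from 177 to 247 (-0.41 ± 0.10, edgeR adjusted p 0.192). Fold changes in the authors' deposited table ran from 0.652 to 1.54 over the 18 genes. For Cebpa that table gives a fold of 0.989 beside an adjusted p of 0.0495, where the counts give a fold of 0.751. For Epha4 it gives 1.00 beside an adjusted p of 0.0466. The Epha4 group means were 0.696 CPM in the controls and 1.65 at 0.02 mg/kg. Its log2 fold change ran from 1.03 to 1.38 on leaving out 1 rat, and edgeR did not call it. The other values given here are therefore those computed from the counts.

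Most genes could be bounded closely. For 9827 of 11930 genes (82.4%) the 95% interval of the change lay inside 1.5-fold in both directions. It lay inside 2-fold for 11474 genes (96.2%). A test of equivalence at 1.5-fold, 2 one-sided tests adjusted over all genes, passed for 10211 genes (85.6%). The median gene's interval reached a 1.23-fold change on its wider side, and that of the gene at the 90th percentile a 1.67-fold change.

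The level of a gene set how small a change could be excluded. Among the 6585 genes with a mean of at least 10 CPM, 96.7% of intervals lay inside 1.5-fold and 99.3% inside 2-fold. The share inside 1.5-fold was 92.6% at 5 to 10 CPM, 81.7% at 2 to 5, 47.0% at 1 to 2 and 12.2% at 0.5 to 1 CPM. Below 0.5 CPM it was 0 of 143 genes, and 36.4% of those lay inside 2-fold. At 100 CPM and over it was 95.7%, slightly under the 97.5% at 50 to 100 CPM. Genes above 100 CPM whose interval reached past 1.5-fold include Fasn (fatty acid synthase), whose interval ran from 0.340- to 1.11-fold, and Scd (a fatty acid desaturase), from 0.442- to 1.6-fold.

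**Figure D3:**
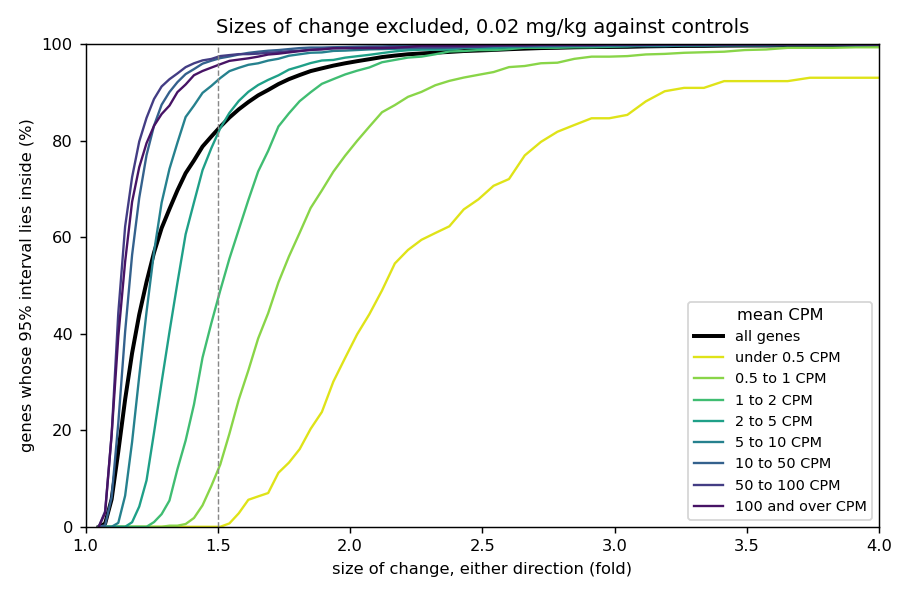
Share of genes (vertical, %) whose 95% interval at 0.02 mg/kg over control lies inside a given fold change in either direction (horizontal), for all genes (black) and by mean CPM (colours). At 1.5-fold, the dashed line, the share is 82.4% for all genes and 12.2% for those at 0.5 to 1 CPM.

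Cyp2e1 (ENSRNOG00000012458), the enzyme that activates furans, had a log2 difference of 0.07 ± 0.13 (edgeR adjusted p 0.943), and changes beyond 0.871- and 1.27-fold were outside its interval. Phgdh (ENSRNOG00000019328), which opens the route to serine biosynthesis, ran from 0.133 to 1.92 CPM in the controls and from 0.288 to 2.03 at 0.02 mg/kg, so its groups covered the same range. Its difference was 0.05 ± 0.61, and at this level the interval, 0.438- to 2.46-fold, excluded no 2-fold change. At 1.0 mg/kg Phgdh ran from 14.6 to 49.6 CPM, with a log2 fold change of 4.93 ± 0.48. Gstp1 (ENSRNOG00000018237), the glutathione S-transferase that marks preneoplastic rat hepatocytes, ran from 3.87 to 7.73 CPM at 0.02 mg/kg, with a median of 6.19. In the controls it had a median of 6.96 CPM, a lowest value of 6.75 and a highest of 21.6. Of the controls, 6 lay between 6.75 and 8.05 CPM and 2 apart, rat MC508L at 21.6 and rat MC511L at 18.7. The difference was -0.75 ± 0.64 (edgeR adjusted p 0.874), and a rise beyond 1.49-fold was outside its interval. Without rats MC508L and MC511L the Gstp1 difference was -0.22 and the upper end of its interval moved from 0.57 to 1.23 on the log2 scale, so a 2-fold rise was then not excluded.

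Other genes of the NRF2 list were high in the same 2 controls. The list holds genes of glutathione conjugation, aldehyde reduction and export known to answer electrophiles. Of its 32 genes, 26 were in the deposited table. Srxn1, Pgd, Osgin1, Cbr1, Nqo1 and Hmox1 were not in it and so were not tested. Gsta3, another glutathione S-transferase, stood at 119 and 61.3 CPM in rats MC508L and MC511L, beside 2.11 to 9.20 in the other 6 controls and 2.2 to 7.51 in the 8 dosed rats. Akr7a3, an aldehyde reductase, stood at 188 and 322 CPM, beside 23.9 to 84.3 in the other controls and 22.9 to 58.9 in the dosed rats. Gpx2 (a glutathione peroxidase) stood at 3.65 and 3.36 CPM and Abcc3 (an export pump) at 11 and 9.51. In the dosed rats Gpx2 ran from 0.144 to 1.21 CPM and Abcc3 from 1.23 to 3.55. No rat at 0.02 mg/kg reached these 2 controls in any of the 5 genes. At 0.075 mg/kg, 2 of 8 rats were high likewise, rat MB549L (Gstp1 23.8, Gsta3 94.9 CPM) and rat MB551L (21.5 and 102). Nothing in the labels sets these rats apart.

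Over the list, 0 of 25 tested genes were called at 0.02 mg/kg by edgeR or DESeq2, and 3 had an unadjusted edgeR p under 0.05, all lower, as did 4.01% of all genes (3.08% were higher). The median was -0.18 beside -0.0016 over all genes, with 22 members below 0 and 3 above. Without rats MC508L and MC511L the median was -0.05, with 17 below 0 and 8 above. The log2 differences of Gsta3, Akr7a3, Gpx2 and Abcc3 were -2.50, -1.14, -1.57 and -1.15 with all controls and 0.07, -0.20, -0.28 and -0.49 without those 2, and none passed in either fit. At 1.0 mg/kg 15 list members were called higher and 2 lower, beside 21.2% and 22.5% of all genes. Ephx1, epoxide hydrolase, and Abcc2, a canalicular export pump, were at -0.26 ± 0.18 and 0.11 ± 0.11 at 0.02 mg/kg. Intervals of 14 of the 25 members lay inside 1.5-fold, and 17 inside 2-fold.

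The 250 bases before the start of Gstp1, Gpx2 and Akr7a3, the 3 of these 5 genes that the promoter table holds, are shown because the genes were high in the same rats. Gstp1 lies at chr1:210769706-210769955 on the minus strand, Gpx2 at chr6:101230034-101230283 on the minus strand and Akr7a3 at chr5:156876471-156876720 on the plus strand (RefSeq, GRCr8, gene strand). Capitals mark TGACNNNGC, on either strand, in Gstp1 and Gpx2, and AGAACA in Akr7a3.
Gstp1: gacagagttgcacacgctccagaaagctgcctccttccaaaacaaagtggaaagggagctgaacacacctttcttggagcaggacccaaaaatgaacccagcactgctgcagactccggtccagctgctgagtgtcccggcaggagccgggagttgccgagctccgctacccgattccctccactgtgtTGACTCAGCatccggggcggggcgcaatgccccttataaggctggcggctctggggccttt
Gpx2: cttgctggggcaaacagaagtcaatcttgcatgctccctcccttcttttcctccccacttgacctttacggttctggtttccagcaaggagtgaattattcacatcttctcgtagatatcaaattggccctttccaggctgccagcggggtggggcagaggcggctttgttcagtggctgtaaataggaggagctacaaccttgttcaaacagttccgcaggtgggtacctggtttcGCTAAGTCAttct
Akr7a3: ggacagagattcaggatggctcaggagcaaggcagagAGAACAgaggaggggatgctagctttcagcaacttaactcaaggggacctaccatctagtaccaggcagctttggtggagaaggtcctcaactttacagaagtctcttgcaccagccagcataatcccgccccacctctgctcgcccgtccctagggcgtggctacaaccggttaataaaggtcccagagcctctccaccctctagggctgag
In Gstp1 the match starts 61 bases before the gene's start and in Gpx2 it starts 13 bases before. TGACNNNGC stands in 10.1% of all promoters of this length, and a match is a description only.

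**Figure D4:**
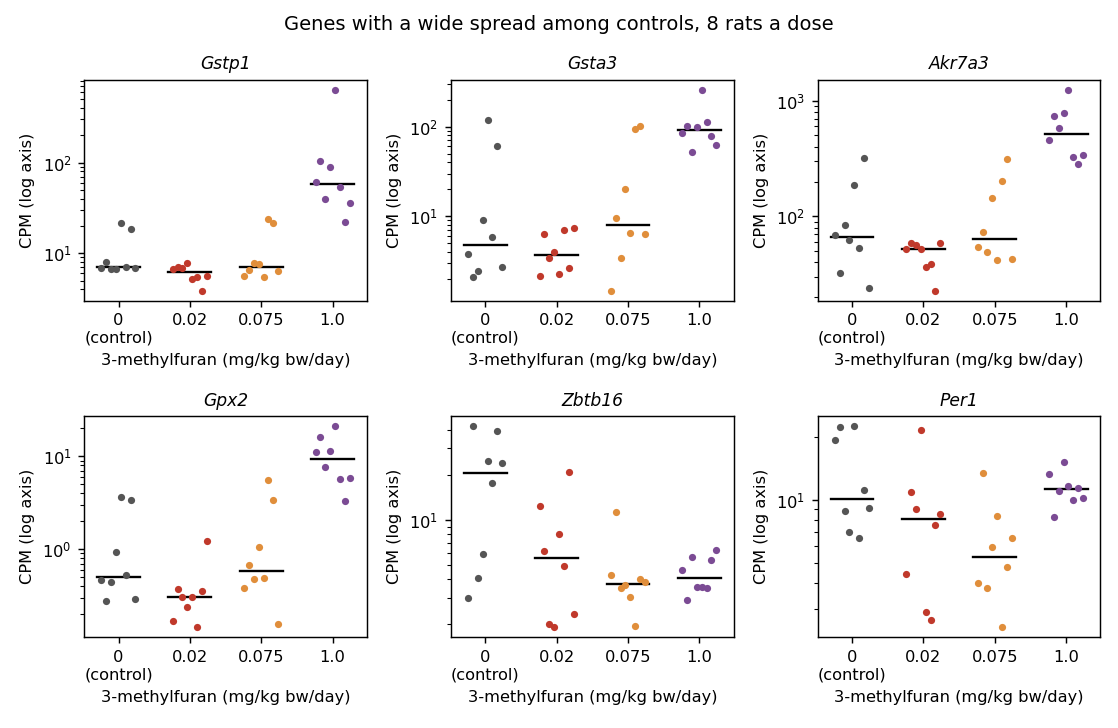
CPM of each rat (points, log axis, 8 a dose) with the group median (line) for 4 NRF2 list genes and for Zbtb16 and Per1. In Gstp1, Gsta3, Akr7a3 and Gpx2, 2 controls and 2 rats at 0.075 mg/kg stand apart from the rest of their own groups. All 8 rats at 0.02 mg/kg are low. In the same order, the lowest rat at 1.0 mg/kg stood at 22.3, 51.9, 282 and 3.33 CPM. Zbtb16 is spread from 2.98 to 42 CPM within the controls.

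The gene lists and cell type marker lists together held 579 symbols, of which 57 were not in the deposited table and 474 were tested, as 475 genes since 2 genes share the symbol Hba-a2. At 0.02 mg/kg 0 of them were called by edgeR, beside 0.0335% of all genes. At an unadjusted p under 0.05 there were 43, 16 higher and 27 lower, beside 7.09% of all genes. DESeq2 called 1 of them, Usp2. For 336 of the 474 symbols the interval lay inside 1.5-fold.

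Among genes that answer glucocorticoids, 0 of 28 were called and the median was -0.05. At an unadjusted edgeR p under 0.05, 5 were lower and 1 higher, beside 4.01% and 3.08% of all genes. Zbtb16, a transcription factor induced by glucocorticoids, ran from 2.98 to 42 CPM in the controls (median 20.7) and from 1.91 to 20.9 at 0.02 mg/kg (median 5.53). The controls fell into 3 rats below 6 CPM and 5 from 17.5 up, and its difference of -1.47 ± 0.49 did not pass (edgeR adjusted p 0.431). Klf13, a Kruppel-like factor, ran from 1.79 to 4.66 CPM and from 1.14 to 3.13, a difference of -0.58 ± 0.22 with an adjusted p of 0.525. Fkbp5, an immunophilin of the glucocorticoid receptor complex, overlapped throughout, at 11.5 to 26 and 11.1 to 34.9 CPM (-0.06 ± 0.17). Lpin1, a phosphatidate phosphatase, was at -0.74 ± 0.21 (adjusted p 0.332). The 1 higher member was Gadd45g, a growth arrest and stress gene, which ran from 10.2 to 28.8 CPM in the controls and from 8.57 to 88.6 at 0.02 mg/kg. Of the dosed rats, 4 lay above every control and 2 below every control, and the difference of 1.22 ± 0.51 was the largest upward in the list (adjusted p 0.610).

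In the circadian clock list 0 of 19 genes were called and the median was -0.0044. At an unadjusted edgeR p under 0.05, 3 were lower and 0 higher, beside 4.01% and 3.08% of all genes. Per1, a repressor of the clock, ran from 6.58 to 22.4 CPM in the controls and from 2.67 to 21.5 at 0.02 mg/kg (-0.68 ± 0.36, adjusted p 0.740). Dbp, an output factor of the clock whose level swings widely over the day, was at -0.02 ± 0.19 with an interval of 0.761- to 1.28-fold. Bhlhe40, another clock repressor, was at -0.71 ± 0.30 (adjusted p 0.615). Usp2, a deubiquitinase under clock control, ran from 9.70 to 22.3 CPM in the controls and from 6.78 to 15.0 at 0.02 mg/kg. Its groups overlapped, and the difference was -0.73 ± 0.18 (edgeR adjusted p 0.192, DESeq2 adjusted p 0.0434). The labels give no hour of sampling.

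Drug-metabolising P450 genes stood near 0, with 0 of 28 called, a median of 0.03 and 22 intervals inside 1.5-fold. Cyp2c11, the main male-specific P450 of rat liver, was at 0.20 ± 0.14. In the bile acid list, 0 of 24 were called and 21 intervals lay inside 1.5-fold. At an unadjusted edgeR p under 0.05, 3 were higher and 1 lower, beside 3.08% and 4.01% of all genes. Slco1b2 was at 0.32, Abcb4 at 0.23 and Akr1c14 at 0.20, each with an interval above 0. The interval of Cyp7a1 held 0, at -0.02 to 1.34 on the log2 scale. Cyp7a1, the rate-limiting enzyme of bile acid synthesis, ran from 24.3 to 86.8 CPM in the controls and from 32.8 to 131 at 0.02 mg/kg (0.66 ± 0.33, adjusted p 0.719), and Nr0b2, which represses it, was at -0.67 ± 0.29 (adjusted p 0.627). Cholesterol synthesis genes had a median of -0.06, with 19 of 24 below 0, and without control rats MC508L and MC511L a median of -0.03, with 15 below. Insig1, a sensor of that pathway, ran from 199 to 909 CPM in the controls and from 171 to 656 at 0.02 mg/kg (-0.72 ± 0.29, adjusted p 0.572). For fatty acid synthesis the median was -0.19 over 15 genes (-0.10 without those 2 controls), with Fasn at -0.70 ± 0.42 (adjusted p 0.772). For fatty acid oxidation and PPAR alpha targets the median was -0.03, and 25 of 27 intervals lay inside 1.5-fold. In glucose metabolism 0 of 16 were called, with Pck1, the enzyme that commits carbon to gluconeogenesis, at -0.08 ± 0.20.

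Growth and damage programs were likewise without calls. Cell cycle genes, of which 25 were called higher at 1.0 mg/kg beside 21.2% of all genes, had 0 of 29 called at 0.02 mg/kg, a median of 0.11 and 12 intervals inside 1.5-fold. Mki67, a proliferation marker, ran from 0.266 to 5.59 CPM in the controls and from 2.40 to 7.15 at 0.02 mg/kg. Its groups overlapped, and the interval reached from 0.780- to 2.38-fold. The DNA clamp Pcna was bounded more tightly, at 0.06 ± 0.09. Of p53 targets 0 of 19 were called (median -0.06), of ATF4 and unfolded protein response genes 0 of 22 (median -0.05) and of heat shock genes 0 of 10 (median -0.06). At an unadjusted edgeR p under 0.05, 3, 2 and 0 of them were lower, beside 4.01% of all genes. In the same order 0, 0 and 1 were higher, beside 3.08%. Hspa5, the chaperone of the endoplasmic reticulum, was at 0.02 ± 0.08. Extracellular matrix genes had 0 of 29 called and 25 intervals inside 1.5-fold, with Col1a1 at 0.01 ± 0.22. Of the nuclear-encoded oxidative phosphorylation genes, all 24 tested had intervals inside 1.5-fold, and 18 of 19 acute phase genes lay inside 1.5-fold.

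In several lists most members leaned one way without any call. Over all genes, 5896 of 11930 were above 0. Members of any list were measured in the same rats and can vary together, so their directions are not independent. Whether a list shifted as a whole was not tested. In the growth hormone axis 18 of 19 genes were above 0 (median 0.10), and without control rats MC508L and MC511L 14 were (median 0.06). Cish, a feedback inhibitor that follows growth hormone pulses, ran from 1.5 to 4.98 CPM in the controls and from 0.615 to 62.3 at 0.02 mg/kg. Of the dosed rats, 4 were below every control and 4 above every control, and the difference of 2.26 ± 1.05 did not pass (adjusted p 0.657). That value rests largely on rat MA531L, at 62.3 CPM with the next rat at 21.6, and without it the Cish difference was 1.13 (adjusted p 0.926). In the interferon list 22 of 24 were above 0 (median 0.13), led by Isg15 at 0.37 ± 0.12 (adjusted p 0.407). Without control rats MC508L and MC511L 22 were still above 0 (median 0.17). Of cell cycle genes, 22 of 29 were above 0 (median 0.11), and without those 2 controls 23 were (median 0.09). Of pericentral hepatocyte genes, 13 of 15 were above 0 (median 0.19), and without control rats MC508L and MC511L 11 were (median 0.19). At an unadjusted edgeR p under 0.05, 3 pericentral and 2 interferon genes were higher, beside 3.08% of all genes. Glul, glutamine synthetase of the hepatocytes around the central vein, was at 0.19 ± 0.14. The pericentral members ran from -0.13 (Tbx3) to 0.87 (Lgr5), and Slco1b2 and Cyp7a1 are also in the bile acid list. The periportal list stood at a median of 0.01.

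Markers of other cells gave 0 calls in edgeR. At an unadjusted p under 0.05 were 2 of the 5 red blood cell genes, both lower (Alas2 at -0.53 ± 0.24 and 1 of the 2 genes named Hba-a2 at -0.40 ± 0.19), 1 of 9 stellate cell markers, higher (Pdgfrb at 0.26 ± 0.12), and no macrophage marker. Of all genes, 4.01% were lower and 3.08% higher at that threshold. All 10 macrophage markers were above 0 (median 0.09), and they summed to 251 to 590 CPM at 0.02 mg/kg and to 283 to 379 in the controls. The 5 tested red blood cell genes had a median of -0.40, and that list summed to 210 to 312 CPM at 0.02 mg/kg and to 229 to 642 in the controls. Slc4a1 of that list was at 0.05, the 1 member above 0. The log2 fold change of Hbb ran from -0.43 to -0.17 on leaving out 1 rat. Stellate cell, sinusoidal endothelial and cholangiocyte markers overlapped, at 110 to 135 against 97.9 to 130, 76.2 to 163 against 85.8 to 160 and 7.51 to 11.4 against 8.05 to 11.9 CPM. At 0 in all 16 rats was 1 marker of any list, the adipocyte gene Plin1. The part of these cells in the values of the 4 called genes was not tested.

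**Figure D5:**
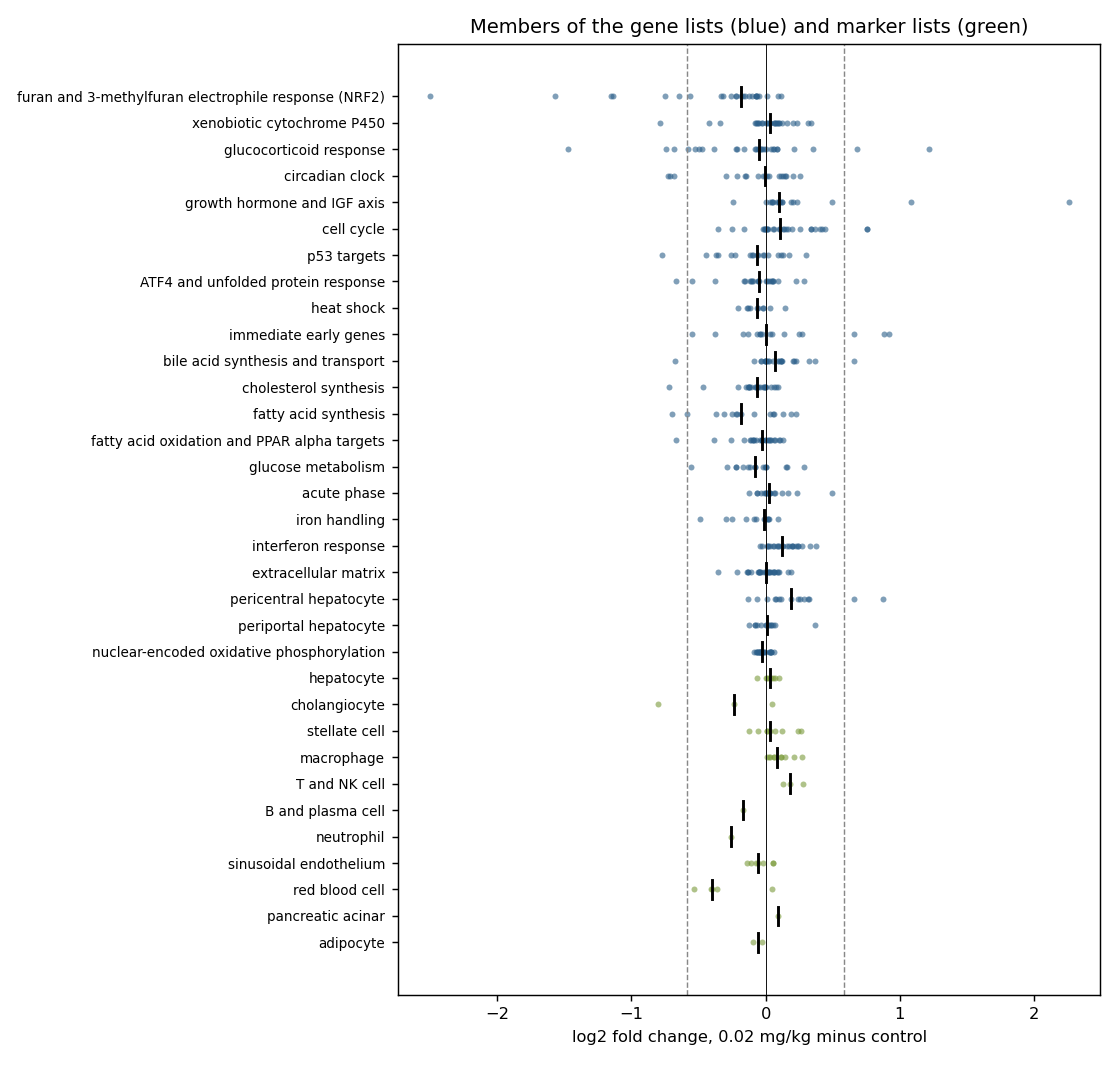
Log2 fold change at 0.02 mg/kg over control (horizontal) of each tested member of the gene lists (blue) and cell marker lists (green), with the list's median (black bar) and 1.5-fold (dashed). Medians run from -0.40 for red blood cells to 0.19 for pericentral hepatocyte genes, and 0 members passed the adjusted edgeR test.

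The genes with the largest changes at 1.0 mg/kg were followed back to 0.02 mg/kg. The rises were led by Phgdh, Prr32, Aldh1a7, Tsx and Ildr1, at log2 fold changes of 4.93, 4.46, 3.98, 3.91 and 3.73. At 0.02 mg/kg they stood at 0.05, 0.81, -0.64, 0.89 and 0.80, and none passed. Prr32 ran from 0.280 to 1.83 CPM in the controls and from 0.228 to 2.96 at 0.02 mg/kg, beside 14.2 to 31.5 at 1.0 mg/kg. Aldh1a7 is an aldehyde dehydrogenase. All 5 were under 4 CPM in every control and every rat at 0.02 mg/kg, so that 2-fold rises stayed inside their intervals. The falls were led by Ky, Inmt, Gimd1, Igfn1 and Rgs16, at -3.67, -3.23, -3.16, -2.92 and -2.73. At 0.02 mg/kg they stood at -0.21, -0.26, 0.13, 0.48 and -0.06. Inmt, an N-methyltransferase, ran from 50.2 to 182 CPM in the controls and from 37.6 to 119 at 0.02 mg/kg, beside 3.98 to 24.9 at 1.0 mg/kg, and a decline beyond 0.536-fold was outside its interval at the low dose.

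Between 0.02 and 0.075 mg/kg, a comparison without the controls, 4 genes were called (0.0335% of 11930), 3 higher at 0.02 mg/kg and 1 lower. Usp2 ran from 6.78 to 15.0 CPM at 0.02 mg/kg and from 3.44 to 5.47 at 0.075 mg/kg. The groups did not overlap, and the log2 difference was 1.16 ± 0.19 (edgeR adjusted p 0.00877). Nr1i2, the xenobiotic receptor PXR, ran from 160 to 201 CPM and from 120 to 150, also without overlap (0.36 ± 0.06, adjusted p 0.00877). Its level at 0.02 mg/kg was that of the controls, with a difference of -0.01 ± 0.06 and an interval of 0.913- to 1.09-fold. Cdc42ep3, an effector of the GTPase CDC42, was higher at 0.02 mg/kg (4.01 to 6.84 against 2.22 to 4.18 CPM, 0.64 ± 0.12, adjusted p 0.0253), with rats of both doses between 4.01 and 4.18 CPM. Magi3, a junction scaffold protein, was lower at 0.02 mg/kg (11 to 16.3 against 14.8 to 22.7 CPM, -0.49 ± 0.09, adjusted p 0.0118). The 0.075 mg/kg group was sequenced more deeply, at 13.2 to 50.05 M counts per rat.

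Furan at 0.03 mg/kg, the lowest dose of the other compound, called 9 of 12727 genes (0.0707%) against its own 8 controls. The dose, the library kit and the controls all differ from those here, so the values are only set side by side. Arhgap24, Homer1, Ppan and Hs6st1 stood at -0.29, -0.18, 0.33 and 0.27 on the log2 scale at furan 0.03 mg/kg, with adjusted p of 0.313, 0.542, 0.606 and 0.511.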

How the data were processed

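The submitters' processing notes name the genome build Rnor 6.0 and the tools featureCounts 2.0.0, STAR 2.7.1a and DESeq2 1.26.0. The sources used here do not give the annotation release, the strand setting or how multimapping reads were treated. The authors deposited raw read counts per gene and run, a fold change as a plain ratio and an adjusted p-value per gene for 3-methylfuran, and, for furan, a signed fold of a unit other than a ratio that was not used. Counts of a rat's 3 runs were summed, since runs differed by sampling noise (chi-square per degree of freedom 0.998 to 1.06 over 48 pairs, beside 6.82 to 35.0 between rats of a group). Symbols come from the authors' table.

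The summed counts were tested with edgeR 4.0.16 (R 4.3.3): filterByExpr on the dose groups (minimum count 10), TMM, and a robust quasi-likelihood F test in 1 fit of all 32 rats, called at a Benjamini-Hochberg adjusted p under 0.05. SEs and 95% intervals come from the fit's Wald variance; log2 fold changes use a prior count of 0.125. CPM use TMM-scaled library sizes. Procedures were tested on simulated data. The exact permutation test used log2(CPM + 1). Alternatives used DESeq2 1.42.0, limma voom 3.58.1, other filters and scaling, the 16 rats alone, 1 run, or fewer rats. The members, gene lists and rules were chosen with earlier results of these data known (22 gene lists, 11 marker lists). Named genes were Cyp2e1, Gstp1 and Phgdh, the called genes or the 5 smallest p in each direction with at least 1 CPM, the 5 largest changes each way at 1.0 mg/kg, list leaders, and fixed glucocorticoid and clock genes; Rrs1, Cebpa, Usp2, Lpin1, Gadd45g, Gsta3, Akr7a3, Gpx2, Abcc3, Cish and other genes outside it were chosen after their values were seen. Of 22 genes named in full, 16 had 1 entry in the RefSeq promoter table (GRCr8), whose sequences are on the gene's strand; no coordinates are given for the Rnor 6.0 build.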

Additional observations from a re-analysis of the deposited data

Results flagged for a closer look

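A value of 1 rat that lay far from the other 7 of its group was looked for in 56 pairs of a group and a measure (28 measures in controls and in rats at 0.02 mg/kg), by Dixon's test at 95%. For normally spread values, chance alone would mark about 1 in 20 groups, and 6 were found. The gene levels were searched in CPM without a check of that spread. Gsta3, Akr7a3, Gpx2, Abcc3, Usp2 and Cish entered the search after their values were seen. The 6 can therefore not be weighed against that rate. Control rat MC502L had the lowest share of counts in its 10 most abundant genes, 26.8%, with the nearest control at 28.1%. At 0.02 mg/kg, rat MA528L had the highest total, 17.6 M counts, beside 14.3 M in the next rat. Rat MA531L had the highest level of Cish, 62.3 CPM, beside 21.6 CPM in the next, and of Fkbp5, 34.9 CPM beside 19.5 CPM. Rat MA525L had the highest Per1, 21.5 CPM beside 10.9 CPM. Rat MA532L had the highest Gpx2, 1.21 CPM beside 0.376 CPM, which is still below control rats MC508L and MC511L. Those 2 controls are not found by this search, which looks at 1 rat at a time. No gene among the 4 called at 0.02 mg/kg had such a rat.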

How the results depend on the processing

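The count of 4 called genes was 4 with DESeq2 size factors in edgeR, 4 without a filter on low counts and 5 with a mean of at least 5 CPM, each with all 4 genes shared. It was 2 in limma voom (Arhgap24 and Homer1), 18 with the DESeq2 Wald test (all 4 shared), 1 with a 1.5-fold minimum, 12 at an adjusted p under 0.1 and 846 at an unadjusted p under 0.05. It was 0 in edgeR on the 16 rats alone (766 genes at an unadjusted p under 0.05) and 0 on run 1 alone (674), both with less information per gene. It was 1 to 11 on leaving out 1 rat, and 0 without control rats MC508L and MC511L together, an alternative added after seeing the data. The genes with intervals inside 1.5-fold numbered 7913 to 9834 across the other settings, 9641 to 9742 on leaving out 1 rat and 9604 without the 2 controls. As a share they were 95.8% of 8260 genes with a mean of at least 5 CPM and 44.3% of 22149 without a filter. The 4 called genes kept their direction in every setting named here, and their log2 fold changes ran from 0.45 to 0.64 (Arhgap24), 0.48 to 0.59 (Homer1), -0.65 to -0.54 (Ppan) and -0.55 to -0.43 (Hs6st1). No paired analysis was possible because rat numbers are not shared between groups. Depth limits what can be excluded for genes under 1 CPM.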
